A study of Mus musculus with 10 samples.

Results

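Glycosylphosphatidylinositol (GPI) anchor genes were followed in livers of knockout and wild-type mice for Etnppl, the enzyme that breaks down phosphoethanolamine. The group holds 31 genes, picked by symbol for their part in building, attaching, remodelling or cutting the anchor, and each of the 31 was found among the 47729 genes of the expression table. Female mice lacking Etnppl in the whole body (KO) and female wild-type mice (WT) gave 5 liver libraries each, and mice of both genotypes had been kept on chow for 8 weeks and then on a diet with 45% of its energy as fat for 10 weeks. No chow-only group entered, so every value belongs to the fat-fed state. Neither the strain nor the deleted part of Etnppl was stated in the labels. Values are FPKM, mapped fragments scaled to transcript length and to library size, from poly(A)-selected RNA.

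A GPI anchor is a glycolipid that holds certain proteins on the outer face of the plasma membrane. Enzymes of the endoplasmic reticulum build it stepwise on phosphatidylinositol. They add and deacetylate N-acetylglucosamine (GlcNAc), acylate the inositol, add mannoses taken from dolichol phosphate mannose, and add phosphoethanolamine taken from phosphatidylethanolamine. A transamidase complex then joins the anchor to the protein, through the terminal phosphoethanolamine. Remodelling enzymes trim the anchor on the way to the cell surface. Gpld1 is a phospholipase D that the liver secretes into plasma and that cuts GPI anchors.

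Depth, estimated from the steps between low values, was 21100000 to 28400000 fragments per library, and any pair of libraries correlated at 0.980 to 0.989 (Pearson r across the 12395 tested genes, log2 scale). Etnppl lay at 7.36 to 10.2 FPKM in KO and 27.6 to 56.6 FPKM in WT libraries, so no library went against its label. The KO mean was 23.6% of the WT mean, so the transcript was reduced and not absent. The 10 hepatocyte markers summed to 70298 to 82181 FPKM in WT and 77505 to 89673 FPKM in KO. Fitted log2 fold changes were above 0 for 8 of the 10 (6 with quantile normalization), and for 34.9% of all genes tested as deposited. An unadjusted p under 0.05 with KO higher was found for 2, Tat and Ahsg, and for 2.69% of all genes tested. The Kupffer cell and macrophage markers summed to 371 to 513 FPKM in WT and 326 to 475 FPKM in KO. Of these 10 markers 9 had fitted log2 fold changes below 0, against 65.1% of all genes tested, and none had an unadjusted p under 0.05. Pancreatic acinar markers summed to 113 FPKM in KO replicate 3 and to at most 3.33 FPKM in any WT library. Among them Prss2 was listed at 0 in every library except KO replicate 3, where it was at 14.8 FPKM. The labels number the samples but do not tie each to its own animal, and the p-values then reflect only the variation among these libraries, which may be technical.

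Genes were tested with limma on log2(FPKM + 0.5), with Benjamini-Hochberg adjustment over all 12395 genes whose mean was at least 0.5 FPKM. Of the 31 members 30 could be tested. The member left out was Pigz, which adds a side mannose to some anchors and had a mean of 0.134 FPKM in WT. At an adjusted p under 0.05, 1 of the 30 members rose in KO (Gpld1) and none fell, against 0.0645% of all genes tested in either direction (8 genes), with 0.0323% in each direction. At an unadjusted p under 0.05, 1 member was higher (2.69% of all genes) and 3 were lower, Pigw, Pigp and Pigc, which is 10% of the members against 9.07% of all genes. That share of lower members is near the background as deposited. The same 3 members were lower with median-of-ratios scaling (5.1% of all genes) and with quantile normalization (5.48% of all genes). The members were chosen with earlier results of these data known, and no set test was run. Neither this share nor the 1 of 30 past the adjusted threshold is read as a result about the group. A fitted log2 fold change below 0 was seen for 21 of 30 members (70%) and for 65.1% of all genes tested (34.9% were higher), a split that became 15 lower and 15 higher with median-of-ratios scaling. The same scaling turned the unadjusted calls over all genes from 334 higher and 1124 lower to 655 higher and 632 lower. It also moved the median log2 fold change over all genes from -0.0503 to -0.00396. The 65.1% is therefore no background for counts under that scaling. In bulk liver RNA, fewer cells of a type and less RNA per cell cannot be told apart.

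**Figure D1:**
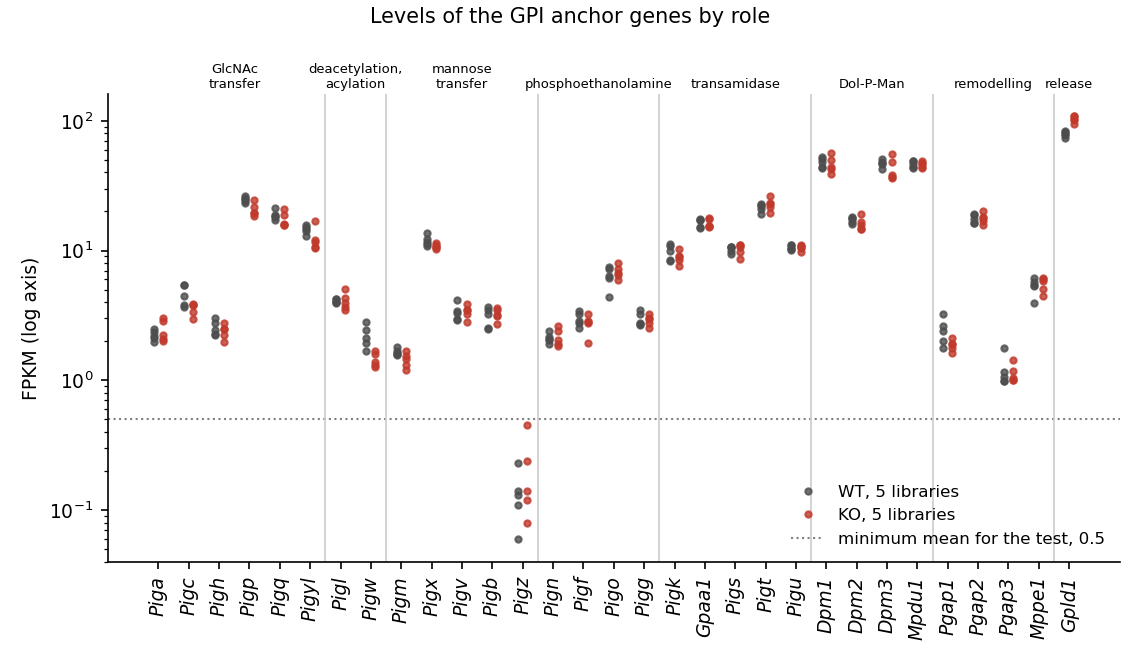
FPKM on a log axis for each of the 31 genes in the 5 WT (grey) and 5 KO (red) libraries, ordered by role; the dotted line marks the minimum mean of 0.5 FPKM for testing. Gpld1 is the highest at either genotype, with no overlap between its groups, and Pigz is the only gene below the line.

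Gpld1 was the highest of the 31 genes by FPKM, which is scaled to transcript length, and above 92.4% of the tested genes in WT. In WT libraries it was at 77.1, 81.3, 79.6, 83.6 and 74.1 FPKM for replicates 1 to 5. In KO libraries it was at 102, 102, 109, 108 and 94.2 FPKM. The lowest KO library therefore lay above the highest WT library. Groups that do not overlap, with KO higher, were seen for 0.581% of all genes tested. The means were 79.1 ± 3.70 FPKM in WT and 103 ± 5.99 FPKM in KO (SD, n = 5 each), a rise of 1.30-fold (95% CI 1.19 to 1.42; limma adjusted p = 0.0449). By exact permutation of the genotype labels (two-sided) p was 0.00794, which is the minimum for groups of this size. Per library, Gpld1 equalled 0.219 ± 0.00697 of the summed FPKM of the 30 synthesis genes in WT and 0.301 ± 0.0270 in KO.

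The size of the Gpld1 difference held across the refits and its call did not. Over 23 other settings the log2 fold change was 0.36 to 0.43, and the adjusted p ran from 0.0283 to 0.130, under 0.05 in 8. Without KO replicate 3, the library with pancreatic transcripts, the log2 fold change was 0.36 (limma adjusted p = 0.117). Hepatocytes make Gpld1, and most of their markers had fitted log2 fold changes above 0. Scaled to the summed hepatocyte markers, its log2 fold change was 0.23 (95% CI 0.03 to 0.42; limma adjusted p = 0.121), while the median of all genes moved to -0.19 under that scaling. In that sum Alb held a mean of 38645.5 of 76366 FPKM in WT, so the scaling rests largely on Alb. The part of the hepatocyte markers in the Gpld1 difference was not tested beyond the scaled value.

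The gene lies on the plus strand of chromosome 13 (24943152 to 24992501, GRCm38; ENSMUSG00000021340). Its last exon overlaps exon sequence of Mrs2, a mitochondrial magnesium channel gene on the opposite strand, over 2466 of its 5415 exon bases (45.5%). Of the shared bases 84 are coding for Gpld1 and 0 for Mrs2, and most of the stretch lies in the 3′ untranslated part of Gpld1. Mrs2 was at 3.69, 3.53, 3.91, 4.45 and 4.30 FPKM in WT and at 3.6, 3.32, 4.0, 4.77 and 4.13 FPKM in KO. These groups overlapped (log2 fold change -0.01, limma adjusted p = 0.984; above 0 with median-of-ratios or quantile normalization), and every Mrs2 value was below 5 FPKM, where Gpld1 was above 74. The labels do not say how reads in the shared stretch were assigned. The FPKM of both genes depend on that assignment, and its part in the Gpld1 difference was not tested.

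**Figure D2:**
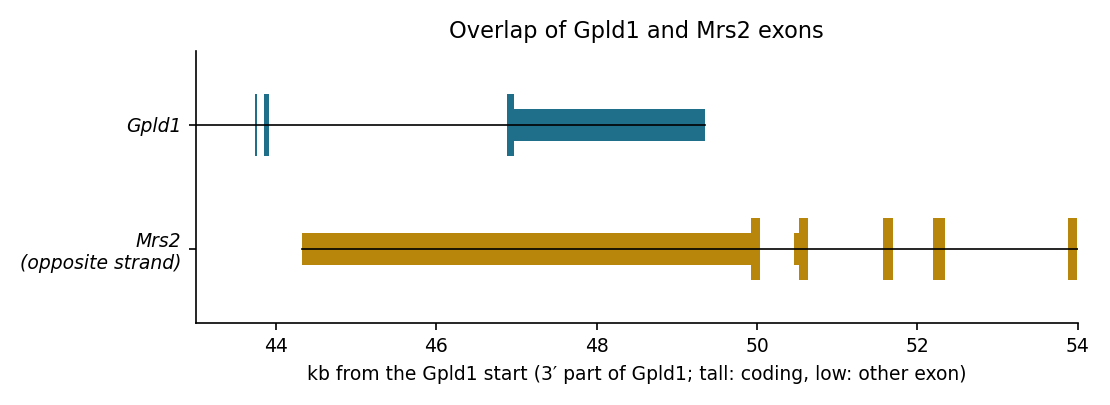
Exons of Gpld1 and Mrs2 at the 3′ part of Gpld1, in kb from the Gpld1 start (tall blocks coding, low blocks other exon sequence, lines introns). The shared 2466 bases run from the start of the last Gpld1 exon to the end of the gene and hold 84 coding bases of Gpld1.

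Sequences before RefSeq starts are shown for Gpld1 and for the 3 synthesis genes with an unadjusted p under 0.05. They were chosen because these 4 members had the lowest p-values, with Gpld1 higher and the other 3 lower in KO. RefSeq and GENCODE starts can differ. The Pigp sequence lies inside the GENCODE gene (94358763 to 94371842), and those of Pigw and Pigc reach past the GENCODE starts (84880285 and 161969186). Each sequence is the 250 bases before the most upstream RefSeq start (GRCm38.p6), given 5′ to 3′ on the strand of the gene. They lie at chr13:24942902-24943151 (plus strand) for Gpld1, chr11:84880196-84880445 (minus strand) for Pigw, chr16:94371016-94371265 (minus strand) for Pigp and chr1:161968938-161969187 (plus strand) for Pigc. Capitals mark matches to the motifs searched on both strands, which here are TTGCNNAA (a C/EBP motif) in Gpld1, GGGCGG (a GC box) in the other 3, and CCGGAAG (an ETS motif) in Pigc.
Gpld1: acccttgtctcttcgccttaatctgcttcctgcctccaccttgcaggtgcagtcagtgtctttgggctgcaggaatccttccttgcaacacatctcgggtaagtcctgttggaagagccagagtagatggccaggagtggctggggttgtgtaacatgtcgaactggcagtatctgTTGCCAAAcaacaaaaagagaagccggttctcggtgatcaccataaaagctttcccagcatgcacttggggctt
Pigw: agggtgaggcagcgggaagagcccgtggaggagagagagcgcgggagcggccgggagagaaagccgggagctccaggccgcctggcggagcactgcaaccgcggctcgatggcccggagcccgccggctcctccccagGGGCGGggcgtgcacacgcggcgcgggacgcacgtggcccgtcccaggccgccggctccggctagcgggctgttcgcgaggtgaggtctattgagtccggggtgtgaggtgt
Pigp: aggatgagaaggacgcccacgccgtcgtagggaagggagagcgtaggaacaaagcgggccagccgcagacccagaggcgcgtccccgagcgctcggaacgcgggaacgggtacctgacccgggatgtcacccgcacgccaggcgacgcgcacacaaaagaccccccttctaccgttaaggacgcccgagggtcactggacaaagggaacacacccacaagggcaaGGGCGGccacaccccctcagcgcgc
Pigc: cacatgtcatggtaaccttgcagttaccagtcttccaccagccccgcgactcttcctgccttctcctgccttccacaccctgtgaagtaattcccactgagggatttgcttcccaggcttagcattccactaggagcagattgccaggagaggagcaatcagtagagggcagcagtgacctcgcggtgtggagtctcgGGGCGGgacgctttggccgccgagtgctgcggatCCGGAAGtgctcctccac
Gpld1 had 5 CpG dinucleotides in this window and the 24 synthesis genes matched to the RefSeq table had 7 to 37 (median 17), against a median of 6 over 27025 genes. Gpld1 thus had the fewest CpGs of the 25 matched members. Pigw had 31, Pigp 27 and Pigc 11. GGGCGG was found in 12 of the 25 windows and in 33.0% of all windows, CCGGAAG in 6 of 25 and in 7.07%, and TTGCNNAA in 2 of 25 (Gpld1 and Pigu) and in 9.55%. CCAAT was in 6 of 25 and in 34.5% of all, TATAAA in 1 of 25 (Pigh) and in 13.0%, and AAGATGGCG (YY1) in 1 of 25 (Mpdu1) and in 0.592%. CAAAGTCCA (an HNF4 motif) and the palindromic NRF1 motif occurred in none of these 25 windows and in 0.377% and 0.777% of all. None of these motifs contains another, and a match describes letters only. Pigg, Pigk, Pigm, Pigyl, Gpaa1 and Mppe1 were not matched.

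The first reaction of the pathway adds GlcNAc to phosphatidylinositol. It is carried out by a complex of the catalytic subunit Piga with Pigc, Pigh, Pigp, Pigq and the small subunit for which Pigyl is the listed gene. In KO livers 5 of these 6 genes had fitted log2 fold changes below 0 as deposited and 1 above 0, and 65.1% of all genes tested were below 0. The split was also 5 to 1 under each of the 4 other scalings. The share of all genes below 0 was not counted under those scalings. Their median log2 fold change was -0.18, against -0.05 for all genes tested. With median-of-ratios scaling it was -0.13, against -0.00396 for all genes tested. None passed the adjusted threshold (smallest limma adjusted p = 0.214), and 2 of the 6 had an unadjusted p under 0.05 with KO lower, as did 9.07% of all genes tested.

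Pigp, a small membrane subunit, was at 23.9, 26.3, 25.4, 23.3 and 25.02 FPKM in WT and at 19.3, 19.6, 24.4, 21.6 and 18.4 FPKM in KO. KO replicate 3 fell within the WT range and the other 4 KO libraries lay below it. The log2 fold change was -0.26 (95% CI -0.43 to -0.09; limma adjusted p = 0.214). The gene is on the minus strand of chromosome 16 (94358763 to 94371842, GRCm38). Its exons share 326 of 1987 bases with Ttc3, an E3 ubiquitin ligase gene on the opposite strand, with means of 8.14 ± 0.711 (WT) and 7.30 ± 0.372 FPKM (KO, n = 5 each; log2 fold change -0.15, limma adjusted p = 0.477).

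Pigc, another membrane subunit, was at 3.79, 5.45, 4.49, 5.45 and 3.70 FPKM in WT and at 2.97, 3.77, 3.37, 3.88 and 3.78 FPKM in KO. The log2 fold change was -0.31 (95% CI -0.58 to -0.05; limma adjusted p = 0.319), and its unadjusted p was under 0.05 only while KO replicate 1, WT replicate 2 and WT replicate 4 were all in the fit. The groups overlapped, since 3 KO libraries were above the lowest WT library. Pigc lies on the plus strand of chromosome 1 (161969186 to 161973435, GRCm38).

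Pigyl was at 13.0, 14.7, 14.1, 15.2 and 15.7 FPKM in WT and at 12.1, 11.6, 10.7, 10.4 and 17.0 FPKM in KO. KO replicates 1 to 4 lay below all WT libraries and KO replicate 5 above all of them (log2 fold change -0.24, limma adjusted p = 0.438). Pigq had means of 18.8 ± 1.58 and 17.4 ± 2.31 FPKM, Pigh 2.55 ± 0.340 and 2.39 ± 0.302 FPKM, and Piga 2.22 ± 0.20 and 2.44 ± 0.455 FPKM in WT and KO (n = 5 each). Levels within the complex were unequal. In WT the FPKM of Pigp was 11.2 ± 1.16 times that of Piga, and in KO 8.62 ± 1.27 times.

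**Figure D3:**
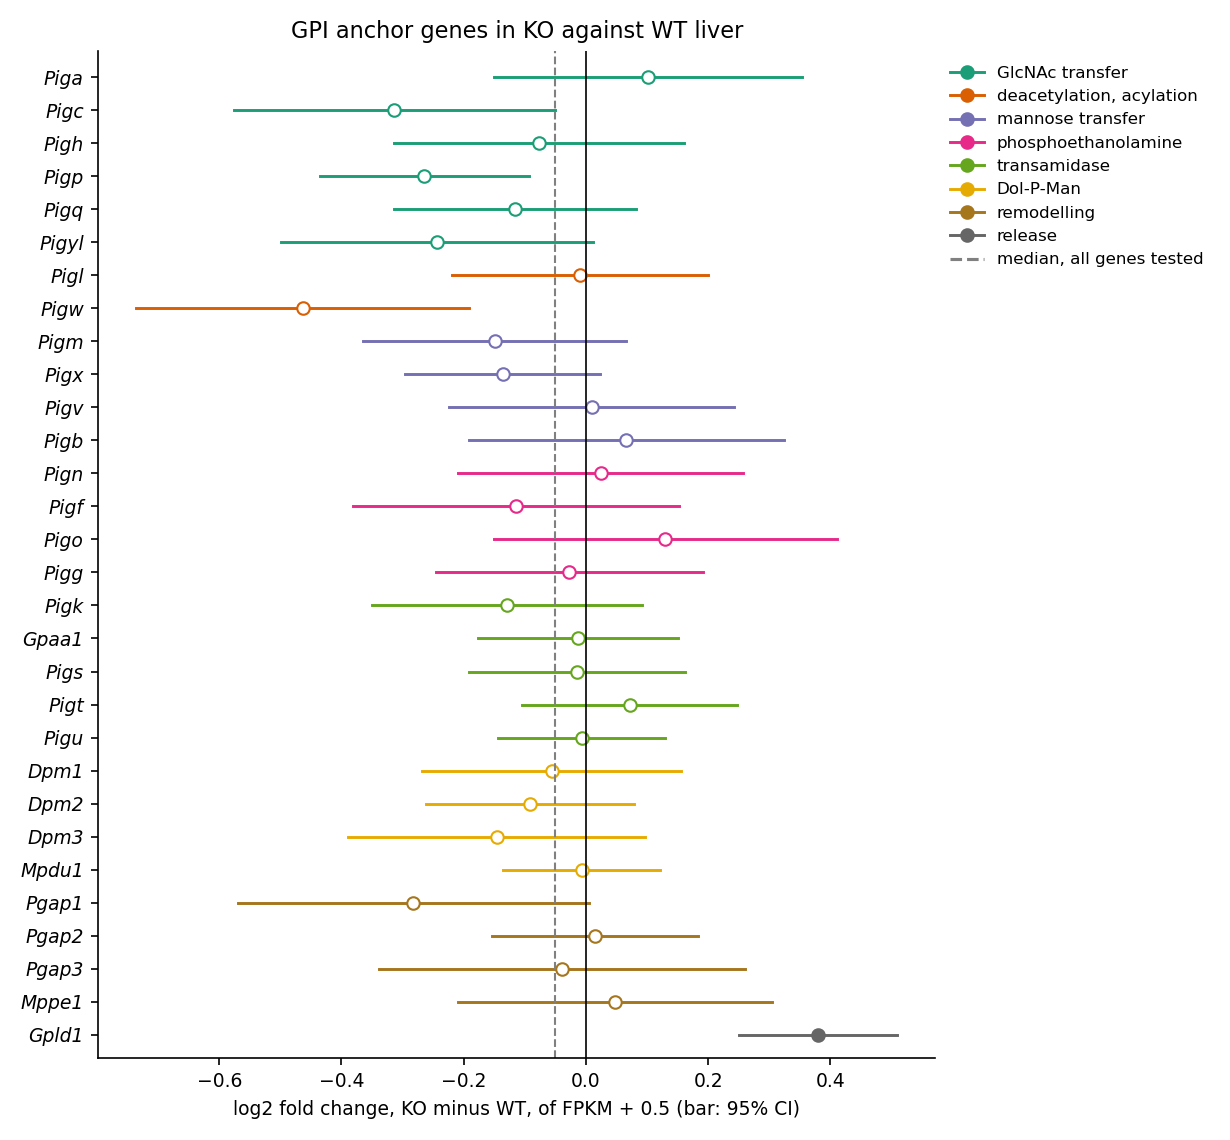
Log2 fold changes of FPKM + 0.5, KO minus WT, with 95% confidence intervals for the 30 genes tested, coloured by role in pathway order; a filled point passed the adjusted threshold and the dashed line is the median of all genes tested (-0.05). Gpld1 (0.38) is the only filled point, and Pigw (-0.46), Pigc and Pigp have intervals wholly below 0.

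The next steps are the removal of the acetyl group by Pigl, a deacetylase, and the acylation of inositol by Pigw. Pigw was at 2.12, 1.93, 1.69, 2.79 and 2.45 FPKM in WT and at 1.38, 1.30, 1.6, 1.67 and 1.26 FPKM in KO. The KO libraries all lay below the WT libraries, by 0.02 FPKM at the nearest (1.67 against 1.69), as did 2.21% of all genes tested. The means were 2.20 ± 0.433 and 1.44 ± 0.183 FPKM (SD, n = 5 each), so KO kept 65.7% of the WT mean. On the log scale the change was -0.46 (95% CI -0.74 to -0.19; limma adjusted p = 0.182, and 0.167 to 0.320 over 22 refits), so the gene missed the threshold. At these levels a library held about 64 to 157 Pigw fragments if all came from the longest transcript.

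Pigw is on the minus strand of chromosome 11 (84876315 to 84880285, GRCm38), head to head with Myo19, a mitochondrial myosin gene whose start is 137 bases away. Myo19 averaged 2.87 ± 0.30 (WT) and 2.83 ± 0.324 FPKM (KO, n = 5 each; log2 fold change -0.02, limma adjusted p = 0.962; above 0 with median-of-ratios or quantile normalization). The exons of the 2 genes share 106 bases. An opposite-strand protein-coding start within 1000 bases was found for 7 of the 31 members (22.6%) and for 16.3% of all tested protein-coding genes. These starts were counted by distance alone, so pairs whose 5′ ends overlap are included. The Pigl means, 4.10 ± 0.142 (WT) and 4.10 ± 0.621 FPKM (KO, n = 5 each), differed by less than the spread between replicates (log2 fold change -0.01, 95% CI -0.22 to 0.20; above 0 with median-of-ratios scaling).

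**Figure D4:**
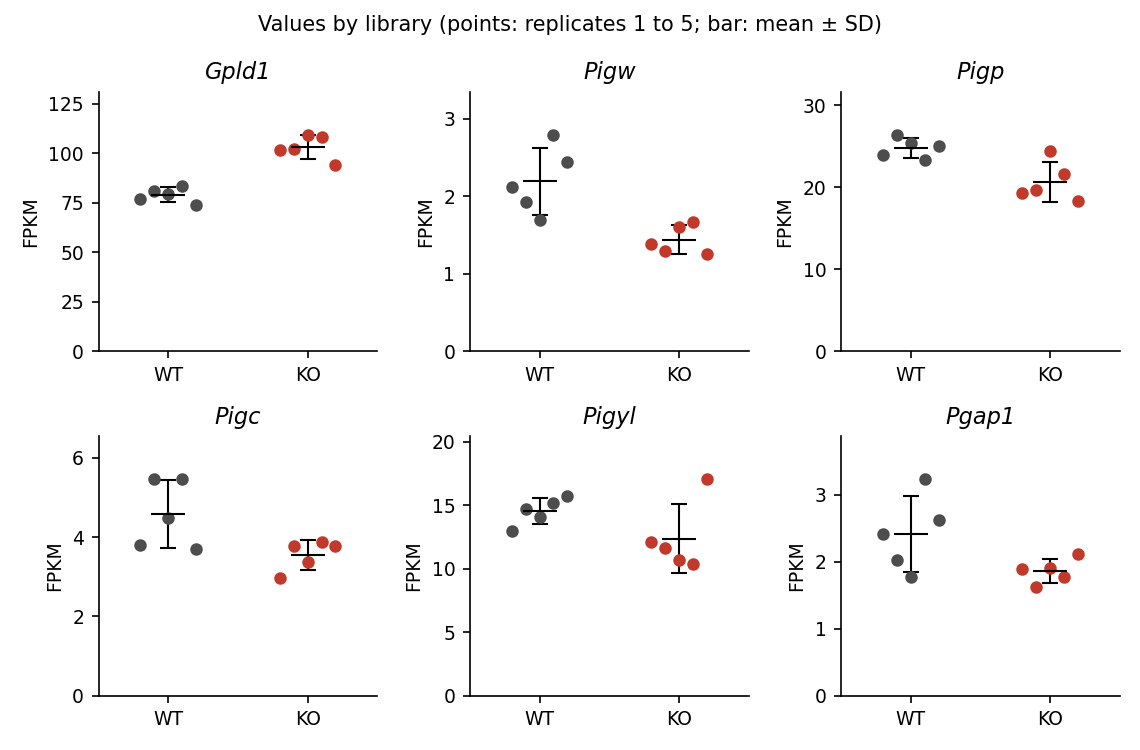
FPKM of Gpld1, Pigw, Pigp, Pigc, Pigyl and Pgap1 in each library, with mean and SD; axes start at 0. Gpld1 and Pigw have no overlap between WT and KO, and KO replicate 5 stands above the other KO libraries for Pigyl (17.0 FPKM).

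Mannoses are added by Pigm with its partner Pigx, then by Pigv, Pigb and, for the side mannose, Pigz. Pigx was at 10.8 to 13.7 FPKM in WT (median 11.7) and 10.3 to 11.5 FPKM in KO (median 10.7), a log2 fold change of -0.14 (95% CI -0.30 to 0.02; limma adjusted p = 0.487). Pigm, the enzyme that Pigx stabilises, was at 1.65 ± 0.0904 and 1.45 ± 0.186 FPKM in WT and KO, with 4 KO libraries below every WT library (log2 fold change -0.15, limma adjusted p = 0.586). Pigv and Pigb had log2 fold changes of 0.01 and 0.07. Pigz ranged from 0.06 to 0.23 FPKM in WT and from 0.08 to 0.45 FPKM in KO, about 3 to 22 fragments a library if all came from its longest transcript. With no filter Pigz had a limma adjusted p of 0.777.

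Phosphoethanolamine, the substrate of Etnppl in free form, is also the group that 3 of the members transfer to the anchor, with phosphatidylethanolamine as the donor. Pign modifies the first mannose, Pigo with its partner Pigf the third, and Pigg, also with Pigf, the second. None of the 4 passed the test, and their log2 fold changes had both signs. Pigo was at 7.17, 7.45, 4.35, 6.18 and 6.33 FPKM in WT and at 6.75, 6.50, 5.90, 8.00 and 7.17 FPKM in KO (log2 fold change 0.13, 95% CI -0.15 to 0.41). WT replicate 3 was the lowest of the 10 libraries for Pigo, and 1 KO library exceeded all WT libraries. Pign averaged 2.11 ± 0.177 (WT) and 2.17 ± 0.342 FPKM (KO), and its log2 fold change of 0.02 had an interval from -0.21 to 0.26. Pigf was at 2.97 ± 0.361 and 2.72 ± 0.478 FPKM, and Pigg at 2.97 ± 0.370 and 2.90 ± 0.287 FPKM (n = 5 each). The intervals of Pigf (-0.38 to 0.15) and Pigg (-0.25 to 0.19) on the log2 scale also include 0. The exons of Pigf share 312 of 988 bases with Rhoq on the opposite strand.

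The transamidase attaches the anchor to the protein. Its catalytic subunit Pigk was at 8.32 to 11.2 FPKM in WT (median 9.88) and 7.6 to 10.2 FPKM in KO (median 8.86), with a log2 fold change of -0.13 (limma adjusted p = 0.664). Gpaa1, Pigs, Pigt and Pigu, the other subunits, had log2 fold changes of -0.01, -0.01, 0.07 and -0.01. For Gpaa1, Pigs and Pigu these turned above 0 with median-of-ratios scaling (0.0384, 0.0358 and 0.0442), which put 4 of the 5 subunits above 0. The median over all genes tested was -0.00396 under that scaling. Pigu had an interval from -0.14 to 0.13, around means of 10.6 ± 0.440 (WT) and 10.5 ± 0.472 FPKM (KO, n = 5 each). Levels of the 5 subunits lay closer together than those of the GlcNAc transfer complex: in WT the highest, Pigt, was at 2.24 ± 0.389 times the lowest, Pigk.

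Dolichol phosphate mannose, the mannose donor, is made by Dpm1 with the small subunits Dpm2 and Dpm3, and Mpdu1 is needed for its use. These 4 genes included the 3 highest synthesis genes in WT, Dpm1 at 48.0 ± 4.14, Dpm3 at 47.0 ± 2.92 and Mpdu1 at 46.3 ± 2.50 FPKM, whose ranges overlapped one another. All 4 had log2 fold changes below 0 as deposited, where 65.1% of all genes tested were below 0. The values were -0.15 for Dpm3, -0.09 for Dpm2, -0.06 for Dpm1 and -0.01 for Mpdu1, and Mpdu1 turned above 0 with median-of-ratios scaling. None passed the test (smallest limma adjusted p = 0.653). In KO the spread of Dpm3 was wide, at 38.0, 48.5, 37.2, 36.1 and 55.4 FPKM, against 42.8 to 50.8 FPKM in WT. Dpm3 in KO replicate 5 was thus the highest of all 10 libraries while 3 KO libraries lay below every WT library.

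Among the remodelling genes, Pgap1, the inositol deacylase, was at 2.41, 2.02, 1.77, 3.23 and 2.63 FPKM in WT and at 1.89, 1.63, 1.91, 1.78 and 2.11 FPKM in KO. The groups overlapped through WT replicates 2 and 3 (log2 fold change -0.28, 95% CI -0.57 to 0.00; limma adjusted p = 0.430). Pgap2 and Pgap3 act in remodelling the lipid part, and Mppe1 removes the phosphoethanolamine from the second mannose. In WT and KO, Pgap2 averaged 17.6 ± 1.28 and 17.8 ± 1.65 FPKM, Pgap3 at 1.19 ± 0.336 and 1.13 ± 0.176 FPKM, and Mppe1 at 5.32 ± 0.827 and 5.50 ± 0.691 FPKM (n = 5 each). Their log2 fold changes, 0.01, -0.04 and 0.05, had 95% intervals that included 0.

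**Figure D5:**
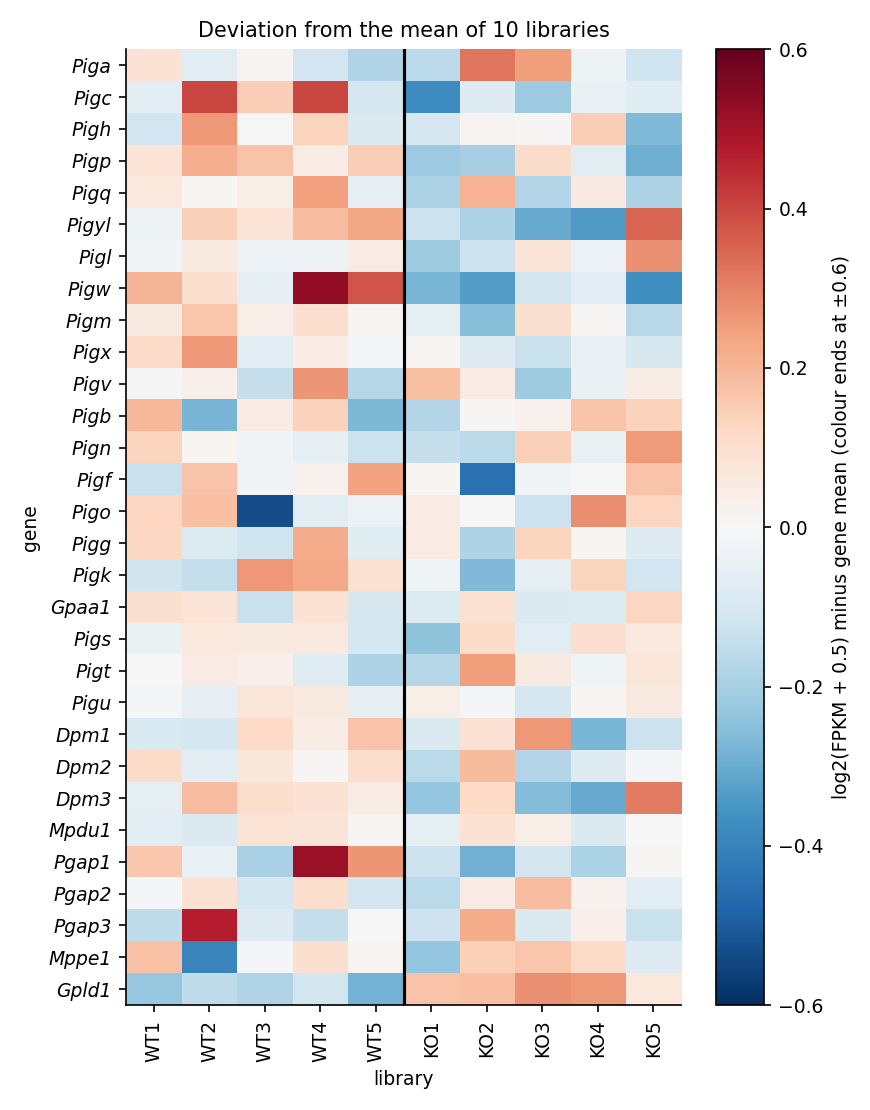
Log2(FPKM + 0.5) of each tested gene minus its mean over the 10 libraries, with WT libraries left and KO libraries right of the line and genes in pathway order. Gpld1 is below its mean in every WT library and above it in every KO library, Pigw shows the reverse pattern except in WT replicate 3, and no synthesis step shows it for all its genes.

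The libraries did not shift the synthesis genes evenly. Of the 29 tested synthesis genes, 6 were above their own 10-library mean in KO replicate 1, the fewest, and 23 in WT replicate 4, the most. Their median deviation was -0.13 in KO replicate 1 and 0.09 in WT replicate 4 on the log2 scale, and over all tested genes it was -0.11 and 0.05 in the same libraries. Without KO replicate 1 the lower members at an unadjusted p under 0.05 were 2 (Pigp and Pigw), when 7.11% of all genes tested were lower, and without WT replicate 4 they were Pigp and Pigw as well (7.14% of all genes). Without KO replicate 5 there were 6 of 30, with Dpm3, Pgap1 and Pigyl added to Pigc, Pigp and Pigw (9.64% of all genes). Without KO replicate 2 (Dpm2 and Pigq added; 8.26% of all genes) or WT replicate 3 (Pgap1 and Pigx added; 9.33% of all genes) there were 5. Pigp and Pigw remained in the list under each of the 10 refits that left out a library.

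Genes around the pathway were read from lists beside the members, and no gene of these lists passed the adjusted threshold. Of 11 tested genes for other pathway steps and for endoplasmic reticulum exit of anchored proteins, 10 had fitted log2 fold changes below 0. As deposited, 65.1% of all genes tested were below 0, and the median was -0.08 for the 11 genes and -0.05 for all genes tested. With median-of-ratios scaling 8 of 11 were below 0, and the median was -0.025 for the 11 genes and -0.00396 for all genes tested. At an unadjusted p under 0.05, 1 of the 11, Tmed5, was lower, a share of 9.09% against 9.07% of all genes. Tmed5, a p24 family cargo receptor, was at 48.6, 54.6, 49.4, 45.1 and 48.6 FPKM in WT and at 42.5, 37.9, 38.5, 40.5 and 30.6 FPKM in KO. All KO libraries were below all WT libraries, as for 2.21% of all genes tested (log2 fold change -0.38, limma adjusted p = 0.140). Of 9 genes for mannose and dolichol supply, 7 had log2 fold changes below 0 as deposited (median -0.12) and 5 with median-of-ratios scaling (median -0.0682). Srd5a3, the polyprenol reductase, was at 11.2 ± 0.579 (WT) and 9.67 ± 1.30 FPKM (KO, n = 5 each; limma adjusted p = 0.403). For the 7 other enzymes that use dolichol phosphate mannose 4 had log2 fold changes above 0, or 6 with median-of-ratios scaling. Of 3 listed enzymes other than Gpld1 that cut GPI anchors or release glypicans, 2 could be tested, and both had log2 fold changes above 0 (median 0.22) without passing.

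Phosphatidylethanolamine supply was read from 8 genes, of which 5 had log2 fold changes below 0 as deposited, where 65.1% of all genes tested did. With median-of-ratios scaling 2 of the 8 were below 0, and the median over all genes tested was -0.00396. The ethanolamine kinase Etnk1 was at 13.5, 11.6, 11.4, 11.04 and 12.9 FPKM in WT and at 8.60, 8.03, 10.2, 8.70 and 9.65 FPKM in KO, with no overlap, as for 2.21% of all genes tested with KO lower (log2 fold change -0.40, limma adjusted p = 0.118). Etnk2, the kinase more abundant in these livers, was at 132 to 195 FPKM in WT and 140 to 242 FPKM in KO (log2 fold change 0.36, limma adjusted p = 0.365), and its groups overlapped.

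Genes that encode GPI-anchored proteins gave 36 tested of 51 listed. Fitted log2 fold changes were below 0 for 21 of the 36 as deposited (58.3%, against 65.1% of all genes). With median-of-ratios scaling they were below 0 for 16 of 36, and the median over all genes tested was -0.00396. At an unadjusted p under 0.05, 4 were lower (11.1%, against 9.07% of all genes) and none higher. Gpc1, a glypican, was at 1.0, 1.15, 1.63, 2.55 and 1.36 FPKM in WT and at 0.55, 0.63, 0.59, 0.76 and 1.13 FPKM in KO (log2 fold change -0.70, limma adjusted p = 0.182). Only KO replicate 5 reached the WT range. Cd59a, an inhibitor of the complement membrane attack complex, was at 62.7 ± 7.14 and 55.3 ± 1.76 FPKM (limma adjusted p = 0.403). Gas1 was at 7.87 ± 2.84 and 5.16 ± 2.12 FPKM (n = 5 each, limma adjusted p = 0.400). Ly6c1 was at 0.896 ± 0.163 and 0.514 ± 0.280 FPKM (n = 5 each, limma adjusted p = 0.259). The list summed to 1062 to 1199 FPKM in WT and 944 to 1203 FPKM in KO, so the summed ranges overlapped.

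As a description only, the genes whose libraries varied most like Gpld1 within genotypes were Orc3, Glt1d1, Efcab14 and Glipr2, with Pearson r of 0.930, 0.916, 0.914 and 0.912 over the 10 libraries. Beside 1 gene with a clone name, these were the most alike of all genes tested. Glt1d1 had a log2 fold change of 0.23 (limma adjusted p = 0.311), and Orc3, Efcab14 and Glipr2 had -0.07, -0.01 and -0.15.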

How the data were processed

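The deposited table holds FPKM that the authors computed, rounded to 2 decimals, 1 column per library. It also has 2 unnamed empty columns. The mm10 build, RSEM and STAR, together with DESeq, DESeq2 and R 4.0.2, are named per the submitters' processing notes, with no role stated for any, and no label names the annotation or the strand setting. FPKM are not counts, and no count model was run. Alternatives changed the scaling, filter, pseudocount, prior, weights and block, or left out a library. Depth came from genes with 1 transcript of 350 to 1000 bases, where 94.7% to 97.5% of low values lay within 0.1 of a whole fragment. It limits the precision of low members such as Pigz.

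Groups came from the labels. Where the mean over 10 libraries reached 0.5 FPKM, a gene was tested as log2(FPKM + 0.5) with limma 3.58.1 in R 4.3.3 (trend, robust prior, two-sided). Fold changes on this scale understate those of low genes. On simulated data (3 runs, 200 changed of 12395 genes) the KO against WT test recovered 9.33% of the genes set to change 1.2-fold. It recovered 68.7% at 1.5-fold and 90.7% at 2-fold. These shares belong to data with 200 changed genes. Recovery where only 8 genes pass the adjusted threshold, as in the deposited data, was not tested. The members and lists were chosen with earlier results of these data known, so lists got no test. Named genes were the members, Etnppl, genes overlapping members of unadjusted p under 0.05, up to 4 genes at that p per other list, and the 5 most like Gpld1. Some list genes were matched by an older symbol (4 of 191 entries). Coordinates are from GENCODE M21 (GRCm38) and promoters from RefSeq (GRCm38.p6). Plots used matplotlib 3.10.9.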

Additional observations from a re-analysis of the deposited data

Results flagged for a closer look

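In 6 of 96 groups of 5 libraries, over the named genes, the highest or lowest value stood apart from the others by more than a 95% limit for such gaps (Dixon's test), and chance gives about 4.8 of 96. Pigyl was at 17.0 FPKM in KO replicate 5 and at 10.4 to 12.1 FPKM in the other KO libraries. Pgap3 was at 1.78 FPKM in WT replicate 2 and at 0.98 to 1.15 FPKM in the other WT libraries. Ly6c1 was at 1.01 FPKM in KO replicate 4 against 0.34 to 0.44 FPKM in the other KO libraries. Gas1 was at 12.7 FPKM in WT replicate 4, against 5.52 to 7.5 FPKM in the other WT libraries, and at 8.83 FPKM in KO replicate 5, against 3.59 to 5.07 FPKM. Glipr2 was at 0.56 FPKM in WT replicate 5 and at 1.10 to 1.23 FPKM in the other WT libraries.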

How the results depend on the processing

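Gpld1 kept its direction in 23 refits and in 1 added after seeing the data. With the replicate number as a block its log2 fold change was 0.38 (limma adjusted p = 0.0942), and no member passed (0). The 5 pairs of equal replicate number correlated at -0.025 to 0.204 in their deviations from the genotype means, and not every library correlated best with its own number. The labels do not say whether equal numbers pair the samples, and they were not treated as pairs. The call was also lost, leaving 0 members, with Etnppl removed (0.38, adjusted p = 0.0513), TPM (0.39, 0.0513), a filter of 0.1 FPKM (0.38, 0.0520) or none (0.38, 0.0867), no trend or robust prior (0.38, 0.113) and a pseudocount of 0.1 (0.38, 0.0507). With scaling to hepatocyte markers the Gpld1 call was lost as well (0.23, 0.121), while 429 genes passed over the whole table, and members were not counted under that scaling. Among the refits with a library left out the fold change was 0.36 to 0.41, with 0 or 1 member past the threshold. Among these the call held only without WT replicate 2 or KO replicate 5, where the adjusted p was 0.0453 and 0.0401. Fewer samples enter those refits. For the other changes the cause was not tested.

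Over all genes tested, 8 passed the adjusted threshold, and 4 to 18 did over the 23 refits: 4 with Etnppl removed, 5 with no filter, with no trend or robust prior and with the replicate block, and 18 with array weights or without WT replicate 2. Members lower at an unadjusted p under 0.05 numbered 5 with array weights (9.21% of all genes tested) and 2 to 6 with a library left out (7.11% to 9.64% of all genes). The median of the synthesis genes was -0.039, and 0.0164 with quantile normalization.

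No other named gene except Etnppl passed in any refit. Values near 0 changed sign as follows (log2 fold change). With TPM, Pigu was at 0.00361, Mpdu1 0.00365 and Mrs2 0.000975. With array weights, Pigl was at 0.0118, Pigv -0.0107, Pigs 0.00613, Mrs2 0.00792 and Efcab14 0.00895. With median-of-ratios scaling, Pigl was at 0.0372, Pigg 0.0184, Gpaa1 0.0384, Pigs 0.0358, Pigu 0.0442, Mpdu1 0.0456, Mrs2 0.0387, Myo19 0.0263 and Efcab14 0.0390. With quantile normalization, Pigl was at 0.0485, Pigg 0.0415, Gpaa1 0.0284, Pigs 0.0388, Pigu 0.0423, Mpdu1 0.0427, Pgap3 0.0163, Mrs2 0.0534, Myo19 0.0530 and Efcab14 0.0431. Without the top 50 genes, Pigl was at 0.00531, Gpaa1 0.00325, Pigs 0.00139, Pigu 0.00959, Mpdu1 0.00981, Mrs2 0.00699 and Efcab14 0.00503. With a library left out the ranges were -0.0797 to 0.0421 for Pigl, -0.0350 to 0.0771 for Pigv, -0.0374 to 0.0671 for Pign, -0.0645 to 0.0247 for Pigg, -0.0482 to 0.00958 for Gpaa1, -0.0441 to 0.0440 for Pigs, -0.0212 to 0.0193 for Pigu, -0.13 to 0.00541 for Dpm1, -0.0294 to 0.0141 for Mpdu1, -0.0300 to 0.0570 for Pgap2, -0.0987 to 0.0740 for Pgap3, -0.0457 to 0.11 for Mppe1, -0.0703 to 0.0458 for Mrs2, -0.0603 to 0.0330 for Myo19, -0.0485 to 0.0528 for Efcab14 and -0.29 to 0.00608 for Glipr2.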
